A study of Mus musculus with 8 samples.

Results

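The probes described here read long intergenic noncoding RNA (lincRNA) regions in the ileum of the mouse, where the small bowel ends. On the Agilent mouse array used, such a region has no gene symbol and is named by its mm9 position and strand, as in chr2:31001736-31006911_F, where F is the forward and R the reverse strand. A probe was taken when its name had this form, its region lay on an autosome, and it was well above background by the scanner software on at least 4 of the 8 arrays. This gave 4467 probes of the 16181 lincRNA region probes on the array, which holds 55681 probes in all. They belong to 2305 strand-specific region names, and joining regions within 10 kb left 1284 loci, 417 of which had a single chosen probe. The probes were thus chosen by measured values, the background calls on the 8 arrays, and the comparison between groups was known when the probes were chosen.

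All 8 samples are total RNA from the ileum of female mice, and the strain label of all 8 gives the genotype Rosa26rtTA/+, Hprt Myc-Tnk1tg. From Rosa26 the line makes rtTA, an activator that binds its DNA target once doxycycline is present, and its Tnk1 transgene, with a Myc tag, sits at Hprt. TNK1 is a non-receptor tyrosine kinase. There were 4 arrays from mice injected with doxycycline at 50 µg per g in 100 µl and 4 from mice injected with 100 µl of 0.9% NaCl, both taken at 24 h; ages are not given in the labels. The strain label of the saline samples is transgenic although both their titles and their source name read WT. They were taken here as transgenic, by the strain label. If they were wild type, the effect of genotype could not be told apart from that of treatment. No doxycycline group lacked the transgene. Doxycycline arrays filled 1 row of the slide and saline arrays the other, and the effect of row cannot be told apart from that of treatment.

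Long noncoding RNAs are transcribed by RNA polymerase II, and many are spliced and polyadenylated like messenger RNA but carry no long reading frame. Many stay in the nucleus, some scaffold nuclear bodies or recruit chromatin proteins, and for many only the act of transcription next to a gene is known. In the intestine they are read from epithelial, stromal and immune cells together, so in whole tissue fewer cells of a type and less RNA per cell cannot be told apart.

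Sequences of 60 bases are given for the probes on which the largest and most repeated differences rest, as deposited, 5′ to 3′ on the strand the probe names, in mm9. The first is the probe with the largest fitted difference, chr1:175657599-175657658, reverse strand, beside the interferon-inducible gene Ifi207. The next 2 are overlapping neighbours at chr1:175655046-175655105 and chr1:175655065-175655124, with their 41 shared bases in capitals, and the fourth, chr1:175706660-175706719, lies in the region that holds Ifi203.
Ifi207 side, largest fitted difference: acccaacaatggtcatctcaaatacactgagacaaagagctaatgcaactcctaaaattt
Ifi207 side, overlapping pair, first: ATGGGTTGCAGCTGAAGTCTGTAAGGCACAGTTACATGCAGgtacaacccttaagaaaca
Ifi207 side, overlapping pair, second: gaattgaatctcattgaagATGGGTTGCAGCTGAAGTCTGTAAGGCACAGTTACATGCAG
Ifi203 side: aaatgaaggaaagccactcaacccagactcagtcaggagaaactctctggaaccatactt

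Forward-strand probes opposite Neat1, at chr19:5845035-5845094 and chr19:5845052-5845111, share the 43 bases in capitals. Snhg18 is read by a pair at chr15:32170329-32170388 and chr15:32170344-32170403, which share 45. The pair beside Herc6, at chr6:57612813-57612872 on the reverse and chr6:57612816-57612875 on the forward strand, is set side by side because 57 of its bases are reverse complements of each other. The last 3 are falls, at chr10:39664431-39664490 and chr5:77084913-77084972 on the reverse strand and chr2:31002432-31002491 on the forward strand.
Opposite Neat1, first: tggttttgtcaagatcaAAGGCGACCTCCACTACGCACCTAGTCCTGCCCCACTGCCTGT
Opposite Neat1, second: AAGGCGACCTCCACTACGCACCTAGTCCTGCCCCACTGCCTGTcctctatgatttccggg
Snhg18, first: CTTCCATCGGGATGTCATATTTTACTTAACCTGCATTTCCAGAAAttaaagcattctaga
Snhg18, second: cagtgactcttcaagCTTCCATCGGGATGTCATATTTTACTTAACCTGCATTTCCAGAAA
Herc6 side, reverse: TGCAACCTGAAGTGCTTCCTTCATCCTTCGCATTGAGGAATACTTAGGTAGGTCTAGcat
Herc6 side, forward: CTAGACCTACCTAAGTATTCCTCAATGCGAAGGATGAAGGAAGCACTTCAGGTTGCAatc
Mfsd4b3-ps region: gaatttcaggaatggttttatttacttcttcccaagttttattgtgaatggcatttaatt
Chromosome 5 region: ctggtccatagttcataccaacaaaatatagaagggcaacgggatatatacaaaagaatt
Chromosome 2 region: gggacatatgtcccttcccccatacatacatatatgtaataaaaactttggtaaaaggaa

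The transgene was checked first. The Tnk1 probe at chr11:69668633-69668692 read 0.34, 0.81, 0.82 and 0.60 with doxycycline and -1.93, -2.02, -1.91 and -2.74 with saline, as log2 intensity minus the 75th percentile of the array, the scale of every level below. That is a rise of 6.92-fold (limma adjusted p = 4.17e-04, Benjamini-Hochberg over all 28636 probes fitted), while the second Tnk1 probe differed by -0.45 on the log2 scale (adjusted p = 0.143). Hprt, the host gene of the insertion, rose 63.9-fold (adjusted p = 5.35e-05). Markers of ileal and absorptive enterocytes were on the array for 8 of 8 genes, 7 of them well above background on all 8 arrays, with a summed level of 10.2 to 10.8 with doxycycline and 10.4 to 10.5 with saline. Of the other marker lists, 5 of 6 goblet cell, 3 of 4 enteroendocrine and 3 of 4 stem and crypt genes fell, and both fitted neutrophil genes rose. Of all probes fitted, 12.9% passed the same limma threshold, an adjusted p of at most 0.05. Neutrophil markers summed to between -0.15 and 2.50 with doxycycline and between -2.22 and -0.03 with saline, goblet markers to 9.21 to 9.82 against 10.6 to 10.9. Of 3 neutrophil genes on the array 1 was well above background on all 8 arrays, so their sums rest in part on dim signal. Stem and crypt sums overlapped, at 4.66 to 4.77 with doxycycline and 4.64 to 5.64 with saline. Liver markers summed to 3.07 to 3.62 with doxycycline and 4.33 to 5.62 with saline, and 1 of 2 fitted fell. The pancreatic markers Cela2a, Cpa1 and Prss1 and the enteroendocrine factor Neurod1 were well above background on 0 arrays. Mesenteric fat markers summed to -2.92 on doxycycline 4 and to 5.26 or more on the other arrays. The part that any of these marker shifts had in the lincRNA values was not tested.

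The name intergenic held only in part. The regions ran from 90 to 533972 bases, with a median of 10701, and 891 of the 4467 probes (19.9%) belonged to a region that also held a probe of a tested gene, on the same strand for 550. For 82 the lincRNA probe itself overlapped the probe of that gene. The nearest tested gene lay within 10 kb of the region for 2026 probes.

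Detection differed between the groups before any comparison of levels. The doxycycline arrays called 5269 to 5678 autosomal lincRNA probes well above background (33.8% to 36.4%) and the saline arrays 2399 to 2913 (15.4% to 18.7%). The negative-control spots had an SD of 1.88 to 2.17 intensity units on the doxycycline arrays and 4.67 to 9.57 on the saline arrays. The lowest level called well above background was accordingly -4.89 to -4.51 with doxycycline and -3.07 to -2.57 with saline, so a dim lincRNA had a measured level in 1 group and only a bound in the other. Among all other probes on the array the share well above background was 63.4% to 65.4% against 49.7% to 53.2%.

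**Figure D1:**
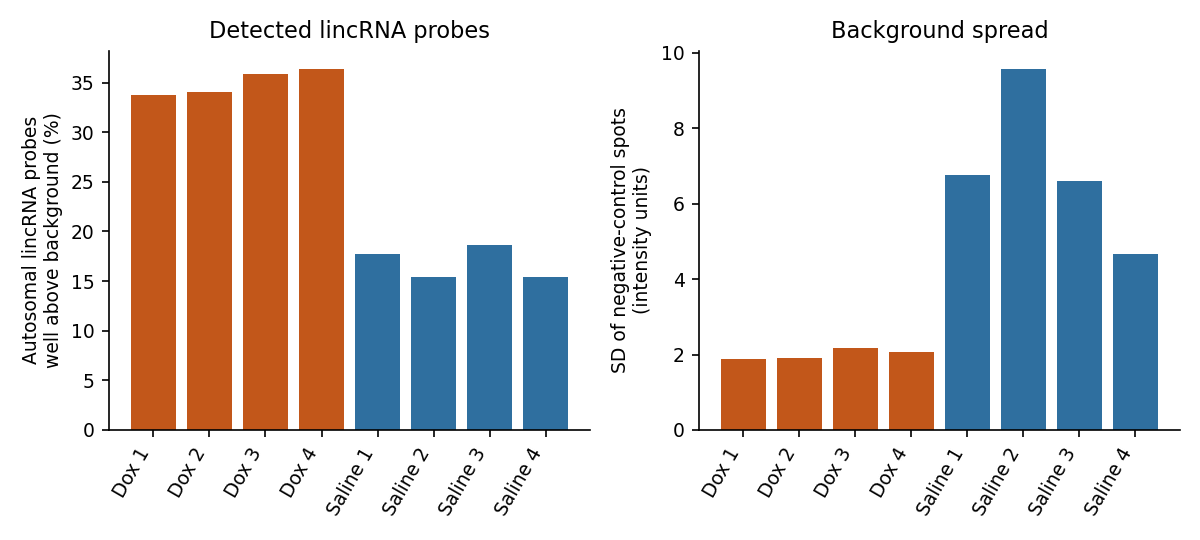
Left, percent of autosomal lincRNA probes well above background on each array; right, SD of the negative-control spots in intensity units on each array, with doxycycline in orange and saline in blue. No doxycycline array falls under 33.8% on the left or over 2.17 on the right, and no saline array exceeds 18.7% or falls under 4.67.

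The detection rule therefore admitted many probes through the doxycycline arrays alone: 1325 of the 4467 (29.7%) were well above background on 4 doxycycline and 0 saline arrays, against 7 on 4 saline and fewer than 4 doxycycline arrays. Probes just inside the rule, on 4 arrays, numbered 1392 with a median log2 difference, doxycycline minus saline, of 0.46. Those just outside, on 3 arrays, numbered 552 with a median of 0.15. The 1927 probes on all 8 arrays (43.1%) have a measured level in every sample and carry the results below unless stated.

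Among these 1927 lincRNA probes, 66 rose and 118 fell with doxycycline at a limma adjusted p of at most 0.05. That is 9.55%, beside 13.4% of all 20329 fitted probes that were on all 8 arrays, of which 4.69% rose and 8.73% fell. Their median difference was -0.0011, against -0.04 for all such probes, and 28 of the rises and 68 of the falls were 2-fold or more. The doxycycline and saline values did not overlap for 346 probes (18%, beside 23.8%). Leaving out 1 array changed both counts: the rises were 18, 24, 23 and 23 without saline 1, saline 3, doxycycline 3 and doxycycline 4, and the falls 47, 48, 46 and 58.

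Over all 4467 probes 288 rose and 138 fell, 9.54% beside 12.9% of the 28636 probes fitted (6.15% rose and 6.71% fell), and the median difference was 0.16 against 0.04. Of the 288 rises, 180 came from probes that were on 4 doxycycline and 0 saline arrays, where 2 fell. For such a probe the saline signal was taken as the higher of its own value and the lowest value called well above background on that array, and the fold is then written as at least. On this bound 68 of the 180 rises exceeded 1-fold and 12 exceeded 2-fold. With normexp background correction the same probes gave 137 rises and 322 falls, and with a common floor over the 8 arrays 98 and 116, so the excess of rises over falls changed with the treatment of dim signal. Without 1 array the rises ranged from 112 (doxycycline 3) to 331 (saline 2) and the falls from 49 (doxycycline 3) to 179 (doxycycline 1); they were 132 and 65 without doxycycline 4, 124 and 53 without saline 1, and 127 and 52 without saline 3. Values did not overlap between groups for 695 probes (15.6%, beside 21.5%).

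**Figure D2:**
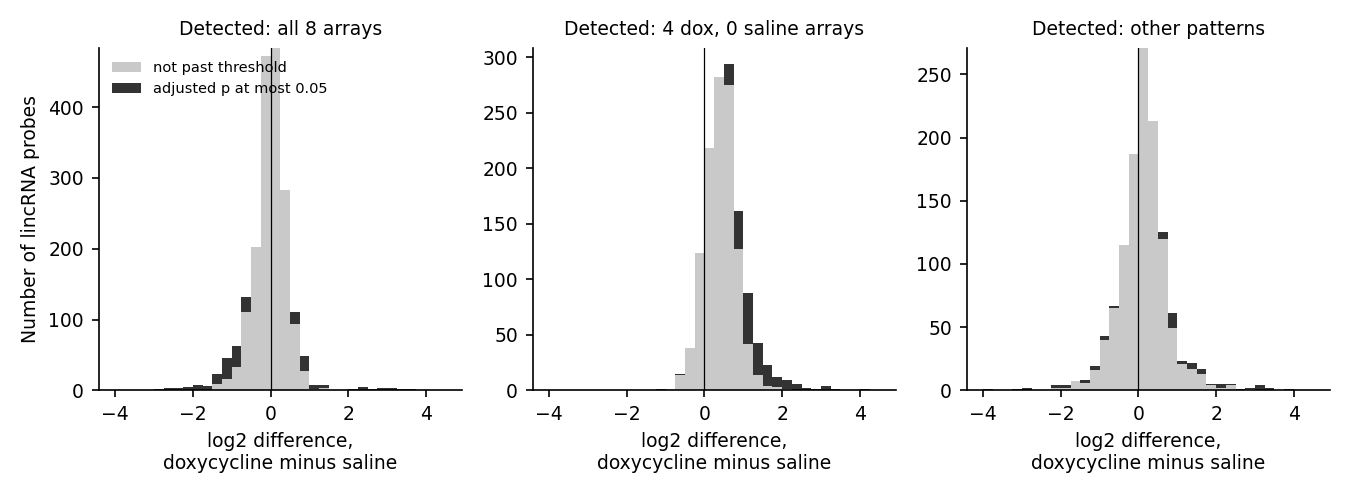
Number of lincRNA probes by log2 difference, doxycycline minus saline, in bins of 0.25, for probes detected on all 8 arrays, on 4 doxycycline and 0 saline arrays, and in other patterns; dark parts are probes with adjusted p of at most 0.05. The first panel is centred on 0, and the middle panel, where saline signal lay under the background limit, is shifted to positive values.

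Calls were spread over 262 of the 1284 loci: 187 held a rise, 84 a fall and 9 both, counting also the rises of probes under the background limit on all saline arrays. At 18 loci 3 or more probes rose and at 11 loci 3 or more fell, and these held 140 of the 426 probes past the threshold. Probes of a locus can share bases and transcripts, so they are not independent measurements.

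The largest measured rises lay in the Ifi gene cluster of chromosome 1, whose genes encode PYHIN proteins, interferon-inducible sensors and regulators of nucleic acids. Of 18 lincRNA probes there 17 rose, and these gave 10 of the 12 largest fitted rises among lincRNA probes past the threshold. All 16 reverse-strand probes, the strand of the genes, rose, and the 9 of them on all 8 arrays differed by 2.79 to 3.61 on the log2 scale. The other 7 were under the background limit on 1 to 4 saline arrays. The probe at chr1:175655046-175655105 read 2.29, 3.16, 1.98 and 1.93 with doxycycline and -0.93, -1.09, -1.15 and -1.90 with saline. Every doxycycline value was above every saline value. The rise was 12.2-fold (95% interval 7.41 to 20.1, adjusted p = 5.51e-04), and its overlapping neighbour, well above background on 3 of 4 saline arrays, rose by 3.33 on the log2 scale (adjusted p = 7.51e-04). The probe with the largest fitted difference, 4.23, read -0.20, 0.86, -0.20 and -0.22 with doxycycline and was well above background on 0 of 4 saline arrays. It was at least 7.39-fold higher (adjusted p = 6.81e-04), and its difference was 2.63 with a common floor and 2.07 with normexp, so it is not shown to exceed the measured rises beside it.

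The Ifi203-side probe at chr1:175706660-175706719 read 3.85, 4.62, 3.33 and 3.44 with doxycycline against 0.38, 0.87, -0.02 and -0.12 with saline, an 11.6-fold rise (interval 6.95 to 19.3, adjusted p = 6.55e-04). Doxycycline 2 was the highest of its group in this probe and in the 2 Ifi207-side probes above. The gene probes between and beside them rose too: Ifi207 by 2.71 on the log2 scale (adjusted p = 5.54e-04), Ifi204 by 4.65 and 3.56 on its 2 probes and Ifi203 by 2.30 and 2.54. A lincRNA probe at chr1:175653663 and the Ifi207 probe start at the same base, and they differed by 2.79 and 2.71. On the forward strand, 1 of 2 probes in the Ifi203 region rose, at least 1.07-fold, and was well above background on 0 saline arrays. With a common floor it differed by 0.19 and lost the call, and with normexp it differed by 0.72 and kept it.

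RefSeq promoters (GRCm38.p6, 250 bases before to 50 after the start) were searched on both strands for GAAA followed after any 2 bases by GAAA, the core letters of an interferon-stimulated response element, for 11 genes of the described loci. An entry was found for 7, and 2 held a match, the single Ifi207 promoter and 1 of 2 Ifi203 promoters, beside 3.44% of all 32851 promoters. The single Herc6 promoter held no match. The 3.44% counts promoters and not genes, the 2 genes with a match lie in 1 cluster, and enrichment was not tested. The Ifi207 promoter at chr1:173741760-173742059 (GRCm38.p6, reverse strand) is shown because its neighbouring probes moved together, with the matched letters in capitals.
Ifi207 promoter: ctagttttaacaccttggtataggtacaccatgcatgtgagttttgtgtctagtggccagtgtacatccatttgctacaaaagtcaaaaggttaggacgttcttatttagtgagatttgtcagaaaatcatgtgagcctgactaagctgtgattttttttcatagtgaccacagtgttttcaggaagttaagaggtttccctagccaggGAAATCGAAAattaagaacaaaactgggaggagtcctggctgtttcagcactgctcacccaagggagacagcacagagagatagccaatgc

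Forward-strand rises marked a region near Herc6, an interferon-inducible E3 ligase of the HERC family. At chr6:57583950-57624216, 15283 bases from the nearest Herc6 probe, 5 of 5 lincRNA probes passed the threshold, 2 forward ones on all 8 arrays and 3 reverse ones that were under the background limit on all saline arrays. The 3 reverse calls were lost with a common floor (differences of 0.49, 0.38 and 0.01) and with normexp. The forward probe at chr6:57612816-57612875 read 2.82, 3.19, 1.29 and 1.22 with doxycycline and -0.14, -0.47, 0.13 and -0.39 with saline. Doxycycline 1 and 2 were higher than 3 and 4, and all were above the saline values. It rose 5.09-fold (interval 2.52 to 10.3, adjusted p = 0.0128). The reverse-strand probe that is its reverse complement over 57 bases was well above background on 0 saline arrays and was at least 1.12-fold higher (adjusted p = 0.0178), a call lost also without saline 1 or saline 3. Herc6 itself differed by 3.20 (adjusted p = 4.61e-04). Without saline 2 and 4 the forward rise did not pass the threshold (adjusted p = 0.0757).

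On chromosome 11, 6 of 9 lincRNA probes at chr11:119250824-119296960 rose. The 2 reverse-strand rises among them were under the background limit on all saline arrays. They differed by 0 and 0.20 with a common floor and by 0.02 and 0.19 with normexp, and lost the call in both. The probe at chr11:119296770-119296829, the single probe there on all 8 arrays, read 2.07, 1.72, 1.45 and 1.04 with doxycycline and -1.24, -1.64, -1.10 and -0.69 with saline. The groups were far apart, and the rise was 6.67-fold (interval 4.37 to 10.2, adjusted p = 7.33e-04). A neighbour, chr11:119296625-119296684, rose by a fitted 3.099 on the log2 scale (adjusted p = 0.00125), but only 2 saline arrays measured it above background, and the difference was 2.52 with a common floor and 1.775 with normexp. The nearest tested gene, the anion transporter gene Slc26a11, lay 12135 bases away and differed by -0.07 (adjusted p = 0.828). An unnamed transcript probe between them, at chr11:119291535, rose by 1.99 (adjusted p = 0.0171).

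Smaller rises were repeated at chromosome 9. Beside Gm3776, a member of the glutathione S-transferase alpha family on the chromosome 9 cluster, 7 of 8 lincRNA probes rose. Of the 8, 4 were on all 8 arrays, among them 1 of 5 reverse probes. A reverse rise of a fitted 1.68 became 0.64 with a common floor and 0.41 with normexp, where its call was lost. Other calls there, forward and reverse, were lost with a common floor. The forward probe at chr9:78116774 read 5.37, 5.11, 5.31 and 5.07 with doxycycline and 3.95, 3.09, 4.69 and 3.84 with saline. No doxycycline value reached down to the saline values, and the rise was 2.50-fold (adjusted p = 0.0238). Gm3776 differed by 1.25 (adjusted p = 0.0267). Without doxycycline 3, doxycycline 4 or saline 1 the lincRNA probe did not pass (adjusted p at most 0.0677). At chr5:23195569-23218551 6 of 8 probes rose, of which 1, on all 8 arrays, rose 2.04-fold (adjusted p = 0.0365), a call that was lost without any of doxycycline 1 to 4, saline 1 or saline 3. That call was also lost with a common floor (a difference of 1.01) and with normexp (0.39). The other 7 probes were under the background limit on all saline arrays. Reverse rises of a fitted 1.64, 2.07 and 1.56 among these became 0.13, 0.54 and 0.05 with a common floor. These calls were lost there and with normexp. The forward probe there was at least 1.48-fold higher on the bound per array (adjusted p = 5.05e-04), its saline values being under the background limit. With a common floor, which raises low values of both groups to 1 limit, it differed by 0.31 and did not pass (adjusted p = 0.178).

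Near Btg1, an anti-proliferative gene, 2 of 5 lincRNA probes rose. The probe at chr10:96098532-96098591 read -1.64, -2.82, 1.04 and 1.39 with doxycycline and was well above background on 0 saline arrays. On the bound per array it was at least 4.99-fold higher (adjusted p = 0.0382). The log2 difference was 2.13 with a common floor and 1.70 with normexp, both smaller than this bound, so 4.99-fold is not a firm lower limit. The doxycycline SD of the probe was 2.05, as arrays 3 and 4 were high and 1 and 2 low. The call was lost without doxycycline 3, doxycycline 4, saline 1, saline 3 or saline 4, with a common floor and with normexp, where the adjusted p reached at most 0.210. The 2 tested Btg1 probes differed by 0.15 and 2.34, and neither passed (adjusted p = 0.699 and 0.0526).

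**Figure D3:**
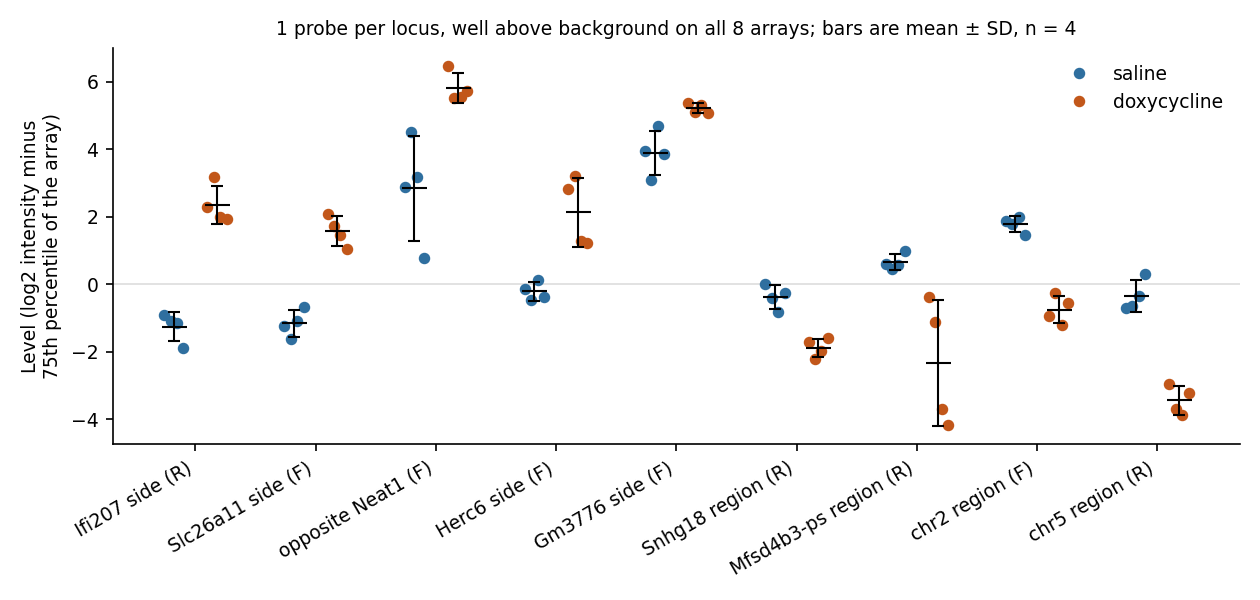
Level of 1 lincRNA probe per locus on each of 4 saline (blue) and 4 doxycycline (orange) arrays, as log2 intensity minus the 75th percentile of the array, with mean and SD; each probe is well above background on all 8 arrays. The groups do not overlap in any of the 9 probes, and the doxycycline values split widely in the Mfsd4b3-ps region, from -4.17 to -0.38.

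Malat1 and Neat1 share a locus on chromosome 19. Malat1 is an abundant nuclear RNA of splicing speckles and Neat1 the scaffold of paraspeckles. Of 24 lincRNA probes there 9 rose. The lincRNA probe on the Malat1 strand at chr19:5795752 read 1.99, 1.79, 2.65 and 2.16 with doxycycline and 0.50, 1.57, 0.66 and 0.08 with saline. It rose 2.71-fold (adjusted p = 0.0226), beside 1.52 on the log2 scale for the Malat1 probe (adjusted p = 0.0276). The call was lost without doxycycline 3, doxycycline 4, saline 1 or saline 3 (adjusted p at most 0.0656). Further along, at chr19:5801802-5802597 on the same strand, 3 probes differed by -0.25 to 0.71 and none passed (smallest adjusted p = 0.0767, largest 0.878).

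At chr19:5834117-5835940 on the reverse strand, the strand of Neat1, 3 probes rose by 2.08, 2.19 and 2.35 (adjusted p = 0.0407, 0.0309 and 0.0431). Transcript positions in mm9 were not used, so whether these probes read a form of Neat1 or a separate RNA was not determined. The last read 0.12, -0.15, 0.47 and -1.15 with doxycycline and -1.81, -2.11, -1.64 and -4.55 with saline, so saline 4 was the lowest value. For all 3 the call was lost without doxycycline 1, doxycycline 2, doxycycline 3, saline 1 or saline 3, with adjusted p up to 0.115. The Neat1 probe at chr19:5842564, on the same strand, read 5.09, 4.74, 2.47 and 1.27 with doxycycline and 4.67, 5.25, 4.79 and 4.12 with saline, a difference of -1.31 that did not pass (adjusted p = 0.286). Doxycycline 3 and 4 were low and doxycycline 1 and 2 within the saline range.

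Opposite Neat1 on the forward strand, 2 overlapping probes rose. The second of the printed pair read 6.47, 5.51, 5.55 and 5.72 with doxycycline and 2.88, 4.51, 3.16 and 0.78 with saline, a 7.88-fold rise (interval 2.77 to 22.4, adjusted p = 0.0228). The first rose 5.20-fold (adjusted p = 0.0179). The calls were lost without saline 1 for both, and for the second also without saline 3, doxycycline 3 or doxycycline 4, at an adjusted p of at most 0.0575. The forward probe that starts at chr19:5845114, beyond the end of both, differed by -0.01 (adjusted p = 0.969).

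Large falls were seen at single probes and at 1 locus. The largest fitted fall was chr8:80596463-80596522, forward strand, 394133 bases from the nearest tested gene. It read -1.55, -0.92, -1.74 and -0.94 with saline and -3.90, -6.11, -5.51 and -5.15 with doxycycline, a fitted difference of -3.88 (adjusted p = 0.00124). Only 1 of 4 doxycycline arrays was well above background there, so the size is not measured: it was -1.29 with a common floor and -1.50 with normexp, and the call held in both. At chr5:77084398-77086144, reverse strand, both probes fell. For 1, above background on 3 doxycycline arrays, the fitted difference of -3.08 became -1.16 with a common floor and -1.44 with normexp. The probe printed above read -0.72, -0.66, -0.36 and 0.31 with saline and -2.96, -3.69, -3.88 and -3.24 with doxycycline, an 8.47-fold fall (interval 5.41 to 13.3, adjusted p = 6.59e-04), or a difference of -2.21 with a common floor and -1.755 with normexp. The RIKEN clone A730089K16Rik, whose probe overlaps it, differed by -3.01 (adjusted p = 7.51e-04), and Cep135, a centriole gene 8953 bases away on the other strand, by -0.33 (adjusted p = 0.383).

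At chr2:31001736-31006911, 64782 bases from Gpr107, 1 of 5 lincRNA probes fell. It read 1.86, 1.79, 2.0 and 1.46 with saline and -0.96, -0.28, -1.21 and -0.57 with doxycycline. All 4 doxycycline values were low, and the fall was 5.78-fold (interval 4.03 to 8.29, adjusted p = 6.11e-04). The other forward probe of the region differed by 0.16 (adjusted p = 0.723) and was well above background on 1 saline array. Another fall was chr7:134826758-134826817, by 2.16 on the log2 scale (adjusted p = 0.00109). Its region also holds a probe of Bcl7c, which is on the other strand and differed by -0.16.

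Among the loci described here, the most falls lay in the region of Mfsd4b3-ps, a pseudogene of the Mfsd4b family of sugar transporters, at chr10:39659425-39679959. This counts probes not on all 8 arrays too. By probes on all 8 arrays Snhg18 had more falls, 7 against 6. All 8 reverse-strand lincRNA probes fell, the 6 on all 8 arrays by 2.27 to 2.98 and the other 2, under the background limit on 1 or 2 doxycycline arrays, with fitted differences of -2.89 and -2.99. With a common floor the last differed by -0.97, and 4 of the 8 did not pass. The forward probe differed by -0.19 (adjusted p = 0.610). The probe printed above read 0.60, 0.44, 0.55 and 0.98 with saline and -0.38, -1.11, -3.70 and -4.17 with doxycycline. Doxycycline 3 and 4 were far lower than 1 and 2, though no doxycycline value reached the saline range. The fall was 7.91-fold with a wide interval (2.33 to 26.8, adjusted p = 0.0379). Mfsd4b3-ps itself differed by -2.23 (adjusted p = 0.0441). Leaving out saline 1 or saline 3 ended the call for all 8 probes, leaving out doxycycline 3 or saline 4 for 7, doxycycline 4 for 6 and saline 2 for 4 of them. The adjusted p reached 0.110.

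Snhg18, a small nucleolar RNA host gene, lies in chr15:32167516-32174427. Of 9 reverse-strand lincRNA probes 7 fell, with differences of -1.501 to -1.05, and the Snhg18 probe fell 2.33-fold (adjusted p = 0.0237). The probe at chr15:32170306 read -0.01, -0.41, -0.84 and -0.26 with saline and -1.73, -2.20, -1.99 and -1.61 with doxycycline, a 2.83-fold fall (adjusted p = 0.00401) that held without any single array. The first of the printed pair fell 2.19-fold (adjusted p = 0.0399) and did not hold when doxycycline 2, 3 or 4 or any saline array was left out. The single forward probe differed by 0.78 (adjusted p = 0.0369) at a level under the background limit of all saline arrays. It has no fold, and with a common floor it differed by 0.

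At chr7:4827340-4863315, which holds Isoc2a, all 6 forward probes fell, by 0.67 to 1.13. The probe at chr7:4847202 read 3.11, 2.91, 3.24 and 3.09 with saline and 2.17, 1.76, 1.99 and 1.94 with doxycycline, a 2.18-fold fall (adjusted p = 0.00304). Of the 2 reverse probes, 1 rose with saline values under the background limit and lost the call with a common floor, and the other differed by 0.07. Isoc2a, on the forward strand, differed by 0.55 (adjusted p = 0.429).

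**Figure D4:**
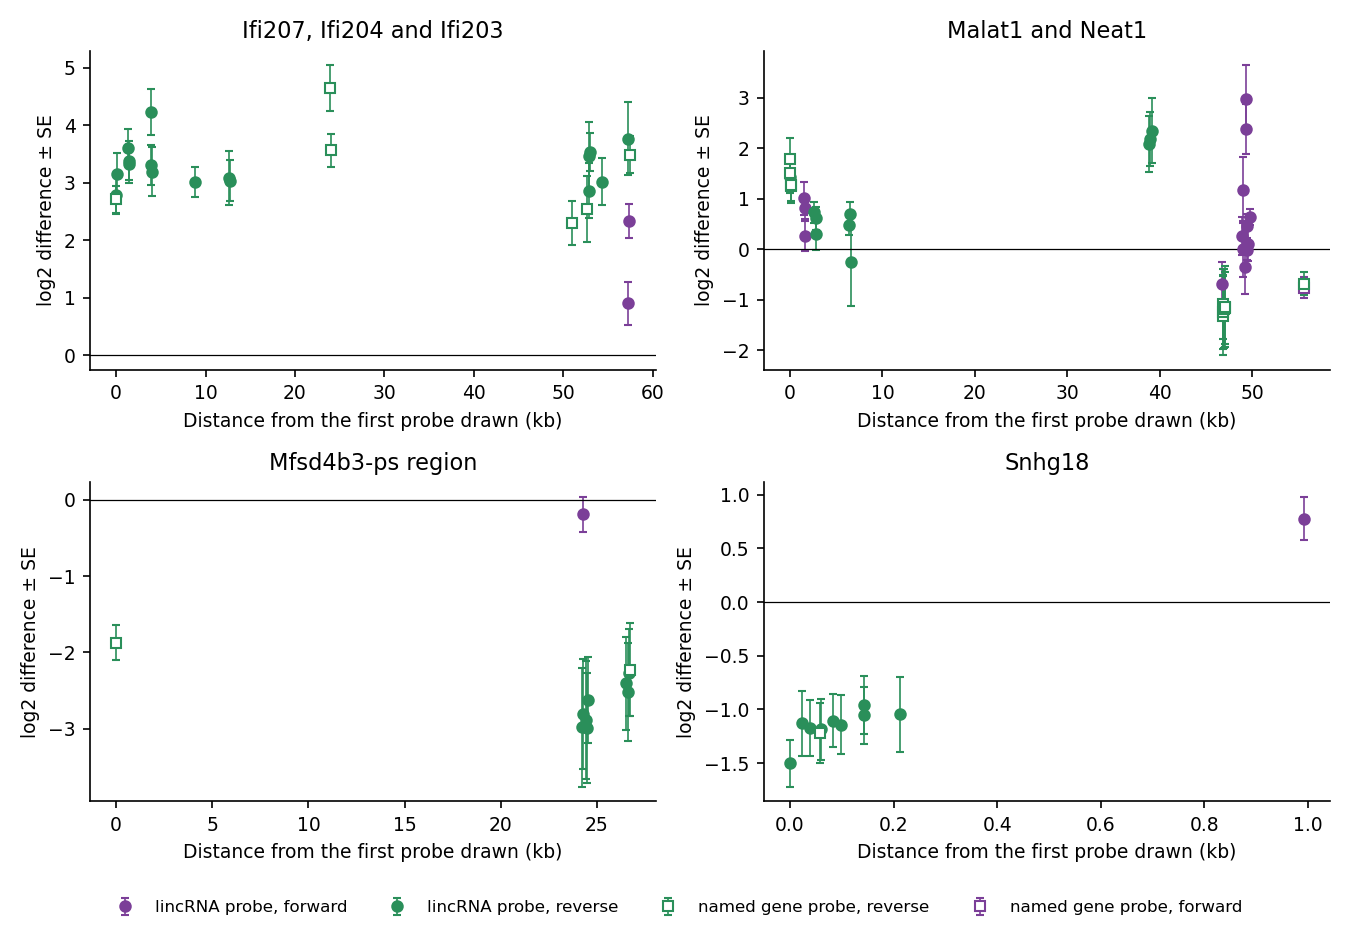
log2 difference, doxycycline minus saline, with SE, of each probe at 4 loci by distance in kb from the first probe drawn, with lincRNA probes filled, probes with a gene or transcript name open, and forward and reverse strands in purple and green. Reverse-strand lincRNA probes lie with the named probes at Ifi207, Ifi204 and Ifi203, at Mfsd4b3-ps and at Snhg18, and above the Neat1 probes on chromosome 19.

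Of 70 probes past the threshold within 10 kb of a gene past it, 67 had the sign of that gene. Among pairs of neighbouring genes within 10 kb, both past the threshold, 67 of 99 had the same sign. The 2 sets differ in strand: on the same strand the counts were 61 of 62 for lincRNA probes and 24 of 26 for gene pairs. On the opposite strand they were 6 of 8 and 43 of 73. For 49 of the 70 the region held the gene's own probe, and 48 of these had its sign. With both on all 8 arrays and averaged per gene, 16 of 16 had the same sign. The other 3 of the 70 had the opposite sign, 1 of them with measured levels in both groups. The probe chr8:27265766-27265825 fell 2.46-fold (adjusted p = 0.00663) and held without any single array, while Thap1, a zinc-finger transcription factor gene 3048 bases away on the same strand, differed by 0.97 (adjusted p = 0.0191). The other 2 were the forward probe at Snhg18 and chr5:23350056, 4435 bases from the mitochondrial import gene Tomm7 (-0.64, adjusted p = 0.0334), both under the background limit on all saline arrays and without a fold. The latter turned to -0.03 with normexp.

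Probes with both strands kept included chr1:162967716-162967775, in a region that holds a probe of Gas5, a growth-arrest long noncoding RNA gene. The lincRNA probe was at least 1.41-fold higher on the bound per array (adjusted p = 0.00109). With a common floor or normexp it differed by 0.24 or 0.08 and did not pass (adjusted p at most 0.676), and Gas5 differed by 0.39 (adjusted p = 0.135). Over 143 intervals with both strands on all 8 arrays, the forward and reverse means had the same sign in 55.2%, with r = 0.18 and rho = 0.20 across intervals. Probes of 1 region name lay closer: over 416 names with 2 or more probes on all 8 arrays, all probes had the same sign in 66.3%, and the median SD within a name was 0.14 against 0.58 over all 1927 probes. These probes often share bases, and all points share the 8 arrays.

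The sign of each difference was set beside that of the nearest tested gene. With lincRNA probe and gene both on all 8 arrays and within 10 kb, 357 of 520 same-strand pairs (68.7%) had the same sign of difference, with r = 0.65 and rho = 0.51 across pairs. On the opposite strand 113 of 192 did (58.9%), with r = 0.01 and rho = 0.25. Averaged per gene, the sign shares were alike, 62.1% over 195 same-strand and 62.0% over 121 opposite-strand genes, with r = 0.48 against 0.09 and rho = 0.38 against 0.29. Without the Ifi gene cluster the same-strand r was 0.55, and without overlapping probes 0.60. In 259 of the 520 same-strand pairs the gene's probe lay inside the lincRNA region (r = 0.67). For the 261 with the gene's probe up to 10 kb outside, r was 0.60, and 0.37 without the Ifi gene cluster (n = 257). For same-strand pairs over 10 to 50 kb apart r was 0.35 with the same sign in 54.9% (n = 195). Over 50 kb apart r was 0.08 (n = 211). Neighbouring genes within 10 kb on the same strand, taken by their own probes, had the same sign in 58.4% of 745 pairs with r = 0.18. The points share the 8 arrays, and several probes share a gene, so no test is given. Over all 2026 probes within 10 kb, 59.1% had the sign of the nearest gene.

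**Figure D5:**
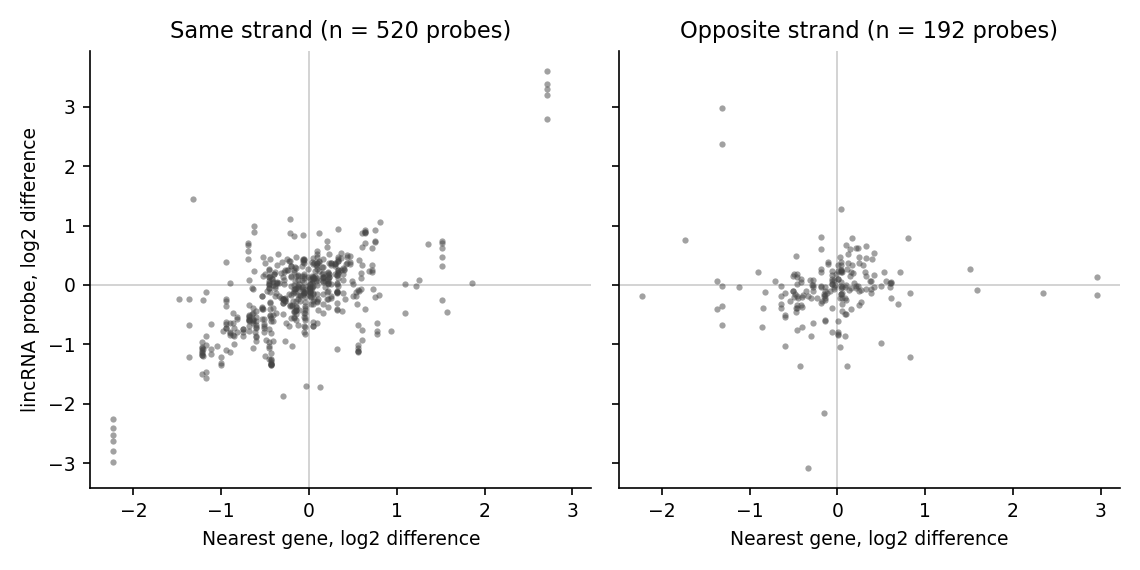
log2 difference of each lincRNA probe (vertical) against that of its nearest tested gene within 10 kb (horizontal), both on all 8 arrays, for gene probes on the same strand (left, 520) and the opposite strand (right, 192). The left cloud runs along the diagonal, with r = 0.65, rho = 0.51 and the same sign in 68.7% of pairs. The right one has r = 0.01, rho = 0.25 and the same sign in 58.9%.

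Counted by probe, the falls lay nearer to genes than the rises, but the falls were concentrated at some loci. The Mfsd4b3-ps, Snhg18 and Isoc2a loci held 6, 7 and 6 of the falls on all 8 arrays. At a further locus, beside Pura, 7 of 14 lincRNA probes fell, where 10 of the 14 were on all 8 arrays. Probes of a locus are not independent, and no count by locus is given. Of the 118 falls on all 8 arrays, 55 (46.6%) were in a region that held a probe of a tested gene, against 15 of 66 rises (22.7%) and 441 of all 1927 (22.9%). The median distance to the nearest tested gene was 0.15 kb for the falls, 14.9 kb for the rises and 12.9 kb for all. The median GC content of the probe sequences was 43.3%, 45.0% and 45.0%.

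The brightest probes did not pass the threshold. The 5 with the highest mean level, each well above background on all 8 arrays, differed by -0.45 to -0.01 with adjusted p from 0.166 to 0.970, and in 2 of them, chr14:78936616 and chr17:17482318, every doxycycline value was below every saline value. The probe chr7:82926943-82927002, 2963 bases from the kinase anchor gene Akap13, read 9.16, 8.94, 8.84 and 9.12 with doxycycline and 9.29, 8.73, 9.11 and 9.29 with saline. The groups overlapped fully, and the 95% interval of its fall was 0.805 to 1.40-fold. The 3 with the smallest difference relative to its error were chr17:6831173, chr5:123448054 and chr16:4538216, whose intervals ran from 0.624 to 1.60-fold at the widest. At the ribosomal RNA repeat of chromosome 17, chr17:39960567-39992817, all 20 probes were on all 8 arrays, differed by -0.20 to 0.86, and did not pass in limma (3 had an unadjusted p under 0.05, smallest adjusted p = 0.0507).

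Long noncoding RNA genes that the array gives by symbol were read as a class beside the regions. Of 86 listed, 49 were on the array and 32 tested: 5 rose and 1 fell (18.8%, beside 12.9% of all probes fitted), with a median difference of 0.22 against 0.04. H19, an imprinted RNA of growth control, read 0.64, 1.49, 0.76 and 1.48 with doxycycline and -2.22, -4.59, -2.49 and -3.93 with saline. The groups were far apart, and it rose by a fitted 4.40 on the log2 scale (adjusted p = 0.00149). Only 2 saline arrays measured it above background, and the difference was 3.56 with a common floor and 2.41 with normexp, with the call kept in both. The microRNA host gene Mir22hg rose 2.65-fold and the small nucleolar RNA host genes Snhg3 and Snhg5 3.01- and 2.46-fold (adjusted p = 0.0148, 0.0230 and 0.0218). With Malat1 and Snhg18, given above, these are the 6 that passed. The count was 2 without doxycycline 3, saline 1 or saline 3, and 3 without doxycycline 4.

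Genes for noncoding RNA decay and for chromatin and RNA-binding partners were counted likewise. Of 76 listed, 69 were tested, 3 rose and 1 fell (5.80%, beside 12.9% of all probes fitted), with a median difference of 0.06. Across the alternatives the list held 2 to 15 calls, the most with array weights. Dis3, the exosome nuclease, rose 2.17-fold (adjusted p = 0.0103) and Ints12, an Integrator subunit, 1.83-fold (adjusted p = 0.0259). Dicer1, which cuts microRNA precursors, fell 1.98-fold (adjusted p = 0.0201). The nuclear exosome subunit Exosc10 and the Polycomb methyltransferase Ezh1 differed by 0.51 and -0.66 and did not pass (adjusted p = 0.0637 and 0.0720). The count was 2 without doxycycline 3 or saline 3, and 8 without saline 4.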

How the data were processed

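RNA from 8 ileum samples, 200 ng each, was hybridised to Agilent mouse arrays of 1 colour, all on 1 slide. Per the file headers, version 10.7.3.1 of Feature Extraction, the Agilent scanner software, made the deposited intensity values. Its processed signal is background-subtracted, and probe positions are in mm9. The authors' deposited value table holds log2 values that equal the log2 processed signal minus a constant per array, by comparison with the scanner values, and was used as an alternative. Here log2 processed signal minus the 75th percentile of each array was computed, spots of a probe were averaged, and control and outlier spots were left out. Probes well above background on at least 4 of 8 arrays went into lmFit and eBayes of limma 3.58.1 (R 4.3.3). Tests were two-sided, the threshold was an adjusted p of 0.05, and the Benjamini-Hochberg adjustment covered the 28636 probes fitted. The method was tested on simulated data.

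Named probes are the 12 largest rises and falls without overlap between groups, up to 6 with both strands kept, up to 6 opposite to the nearest gene, the 5 of highest level and 3 of smallest difference, and up to 6 genes of each list. The loci of Malat1 and Neat1, Herc6, Slc26a11, Gm3776, Snhg18, Isoc2a, Pura, the ribosomal repeat and their further probes were chosen after their values were seen. Members and lists were chosen with earlier results of these data known. The nearest gene is the nearest fitted probe of a gene with a symbol. Of 31108 other array names 22584 matched a RefSeq symbol, and exon or UTR positions in mm9 were not used here. Per-sample columns not used numbered 0. The labels do not say that the arrays are separate animals, and a p-value then reflects only how these samples spread, which may be technical. The number of arrays limits the precision. A result for 1 listed gene is not reported here.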

Additional observations from a re-analysis of the deposited data

Results flagged for a closer look

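In 7 of 100 groups of 4 arrays checked, 1 array lay apart from the other 3 by Dixon's 95% criterion for the gap over the group's range; chance flags about 1 in 20 such groups. Doxycycline 2 was high in the probe with the largest fitted difference beside Ifi207 (0.86 against -0.22 to -0.20, a gap of 0.974 of the range) and in its neighbour at chr1:175655065 (2.35 against 1.25 to 1.37, 0.886). Doxycycline 1 was high in Snhg18 (1.45 against 0.25 to 0.34, 0.924). Saline 4 was high in the Mfsd4b3-ps region probe at chr10:39664499 (0.54 against 0.05 to 0.12, 0.844). It was low in the probe near Thap1 at chr8:27265766 (-1.98 against -1.26 to -1.18, 0.902) and in the probe at chr17:6831173 (-0.04 against 0.82 to 0.97, 0.851). Saline 1 was low in the probe near Tomm7 at chr5:23350056 (-5.10 against -4.62 to -4.56, 0.895), under the background limit of that array.

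The X chromosome lies outside the autosomal set. Of 577 lincRNA region probes there 139 were fitted, and 12 passed the threshold, 5 higher and 7 lower with doxycycline, where 12.9% of all probes fitted passed it. Of the 61 on all 8 arrays, 5 fell and none rose by the same limma test, where 8.73% of all probes on all 8 arrays fell.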

How the results depend on the processing

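The 4467 probes gave 288 rises and 138 falls, and those on all 8 arrays 66 and 118; the long noncoding RNA and decay lists gave 6 and 4 calls. With 1 probe per name the counts were 117, 89, 41 and 77. Array weights gave 604, 333, 178, 247, 13 and 15. With a common floor 98 rose. Without a filter on dim probes they were 492, 234, 114 and 191, with 8 for the decay list. Normexp gave 137, 322 and 1.1e+02 rises on all 8 arrays, with 7 decay genes and a same-direction share of 63.0%. With only the probes on all 8 arrays fitted, 101 rose and the share was 66.0%. Counting only 2-fold changes gave 179, 82, 28 and 68. Without saline 2 and 4 there were 90 falls, 38 and 66 on all 8 arrays, and a share of 62.4%. Leaving out 1 array gave 112 to 331 rises, 49 to 179 falls, 18 to 78 and 46 to 150 on all 8 arrays, 2 to 7 and 2 to 8 for the lists, and a share of 57.5% to 62.5%. The replicate number as a block gave 145, 73, 30, 65, 3 and 2, but same-numbered arrays did not deviate together (r from -0.07 to 0.12), so the numbers do not pair the samples. The share of calls that were rises was 67.6%, against 29.8% with normexp and 45.8% with a common floor. The probe near Tomm7 turned to -0.031 with normexp (adjusted p = 0.886). Of 30 named members past the threshold, 17 kept the call in every alternative run for them, 17 to 19 each. The cause of these shifts was not tested.

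With 4 arrays a group, 1 slide and treatment set by slide row, small differences cannot be resolved. Background noise on the saline arrays limits dim probes to bounds, and a doxycycline group without the transgene was not analysed here.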
